A study of Mus musculus with 4 samples.

Results

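Interferon-stimulated genes are the genes that cells switch on through the type I interferon pathway to block viruses, taken here together with the ligand, receptors and factors that control them. The 35 members were a fixed set of gene symbols, matched by name among the 30174 gene names of a whole-genome Agilent mouse array, and every member had at least 1 probe. RNA came from NIH-3T3:Per2-Luc cells, a mouse fibroblast line that carries luciferase under the *Per2* promoter. A cOS-pulse, which is a critical oxidative stress given as 5 mM H2O2 for 10 min, was followed by harvest after 4 h, 20 h or 32 h, and the control was fresh medium with 0 mM H2O2, labelled 4 h. Each of these 4 conditions had 1 one-colour array and no replicate. Every time point was set against the same control array, so the 3 comparisons with it share whatever is particular to that array, and no control was labelled 20 h or 32 h.

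Interferons bind receptors at the cell surface, and the receptor-bound kinases then activate factors such as STAT2, which works with IRF9 in the complex ISGF3. ISGF3 binds a DNA element called the ISRE in front of many antiviral genes, and a different element called GAS lies in front of other genes of the response. Cells also start the pathway from within, when sensors of foreign RNA activate IRF3 and IRF7 and interferon beta is made.

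Levels are log2 spot brightness relative to the 75th percentile of the same array, so that 0 is the brightness of that percentile. A probe counted as detected when the scanner software marked 50% or more of its spots as well above background, and 21056 of 39427 probes (53.4%) met this in the control, 23294 (59.1%) at 4 h, 21749 (55.2%) at 20 h and 20762 (52.7%) at 32 h. Of the 35 members, 25 were detected in the control, 26 at 4 h, 25 at 20 h and 25 at 32 h. On all 4 arrays 22 members were detected, on some arrays 6, and on no array 7. Ratios use the brightest probe of a gene, and the error after ± is the scanner's error of the spots, which does not cover differences between cultures. Where 1 of a pair of arrays detected the probe, the ratio is a bound and is written as "at least". No ratio is given where the detected level did not exceed the level it would be divided by. With 1 array per condition, no test was possible, and a 2-fold difference was the threshold.

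The cell line was checked against marker genes. Of 9 fibroblast markers, 9 were detected on each array, with a summed level of 673 times the 75th percentile in the control, 575 at 4 h, 601 at 20 h and 615 at 32 h. At least 2-fold lower than the control were 2 of the 9 at 4 h, *Pdgfra* (-1.55) and *Pdgfrb* (-1.35), 3 at 20 h, *Thy1* (-1.39), *Col1a1* (-1.06) and *Col3a1* (-1.02), and 0 at 32 h, with *Col1a1* and *Col3a1* past 2-fold at 20 h under 2 of 6 other scalings of the arrays. At 4 h *Fn1* (-0.68) was at least 2-fold lower under 4 of 6 other scalings and *Col1a1* (-0.71) under 3. The marker with the brightest probe was *S100a4*, at log2 levels of 8.14, 8.20, 8.09 and 8.12. The pan-leukocyte gene *Ptprc*, the macrophage genes *Emr1* and *Lyz2*, the lymphocyte genes *Cd8a* and *Ms4a1*, the endothelial gene *Tek* and the epithelial genes *Epcam*, *Cdh1* and *Krt18* were detected on no array. The myeloid list had 7 markers on the array, of which 4 were detected. Over all 7 the summed level was 23.6 times the 75th percentile in the control and 35.3 at 4 h. It was 14.3 at 20 h and 16.1 at 32 h. The list's brightest probe was that of *Itgam*, at log2 levels of 4.35, 4.92, 3.42 and 3.47. The sum and *Itgam* were both highest at 4 h and lower than the control later. *Cd14* went the other way, its ratio being 0.36 at 20 h and then 1.04 at 32 h, the latter past 2-fold under 6 of 6 other scalings. Endothelial markers, 3 of 4 detected except at 32 h with 2, summed over all 4 to 3.22, 4.29, 4.22 and 4.13 in the same order. Of 4 epithelial markers 1 was detected, *Krt8*, and all 4 summed to 0.569, 1.24, 0.721 and 0.687. The lymphocyte genes *Cd3e* and *Cd4* were detected on all 4 arrays, with levels of -0.81 and 0.55 in the control. At 4 h *Cd68* (2.08), *Cd79a* (2.40), *Cdh5* (1.87) and *Krt8* (1.17, past 2-fold under 2 of 6 other scalings) had a log2 ratio past 2-fold. Other detected markers of those cells did not, with *Itgam* at 0.57 and *Pecam1* at 0.71, and with *Csf1r* at 0.28, *Cd14* at 0.14, *Cd3e* at 0.25 and *Cd4* at 0.28, which turned negative under 4 of 6 other scalings, and *Kdr* at 0.36, which did under 3. Some of the members below were past 2-fold at 4 h, and at 32 h with *Cd14*, and the part of other cells in the members' result was not tested. In such bulk RNA, fewer cells of a type and less RNA per cell cannot be told apart.

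The comparison of 4 h with the control asks how the members stood soon after the cOS-pulse. Members past 2-fold at 4 h lay on both sides of the control. At least 2-fold higher were 10 of 35 members (28.6%), beside 6.78% of all gene names, and at least 2-fold lower were 3 of 35 (8.57%), beside 5.07% of all gene names. The lower members were *Irf1*, *Irf3* and *Ifit2*, and the higher members were *Irf9*, *Dhx58*, *Trim25*, *Isg15*, *Usp18*, *Ifit1*, *Oasl2*, *Mx2*, *Isg20* and *Ifi44*. The calls of *Mx2* and *Ifi44* rest on bounds, and among the 24 members measured on both arrays 8 were higher, beside 8.25% of all gene names so measured, and 3 lower, beside 8.16%. Of these 24 members 12 had a ratio above 0, beside 9554 of 15805 gene names, and their median log2 ratio was 0.00 (below 0 under 5 of 6 other scalings), beside 0.17 for all gene names measured on both arrays. The members therefore stood on both sides of 0, with ratios from -2.45 to 2.30.

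How the 4 h array was scaled changed these counts. The median of all gene names moved by -0.36 with scaling to the median of all probes, by -0.12 with the 75th percentile of probes detected on all arrays, by -0.19 with quantile normalization, by -0.40 with spike-in probes, with or without the 1 spike-in probe furthest from the others, and by -0.28 with no scaling. Leaving out that 1 probe was chosen after seeing the data. With spike-in scaling, 6 members were at least 2-fold higher, beside 3.44% of all gene names, and 6 at least 2-fold lower, beside 9.79%. Under each of the 6 other scalings *Dhx58*, *Ifit1*, *Oasl2*, *Mx2*, *Isg20* and *Ifi44* stayed at least 2-fold higher, and *Irf1*, *Irf3* and *Ifit2* at least 2-fold lower. *Usp18* was past 2-fold under 4 of them, *Irf9* under 2, *Isg15* under 1 and *Trim25* under 0, each with an unchanged direction. With normexp, another background correction that adds an offset of 50 to each spot, 7 members were at least 2-fold higher, and *Isg15* (0.99), *Trim25* (0.98) and *Usp18* (0.80) fell short of it.

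**Figure D1:**
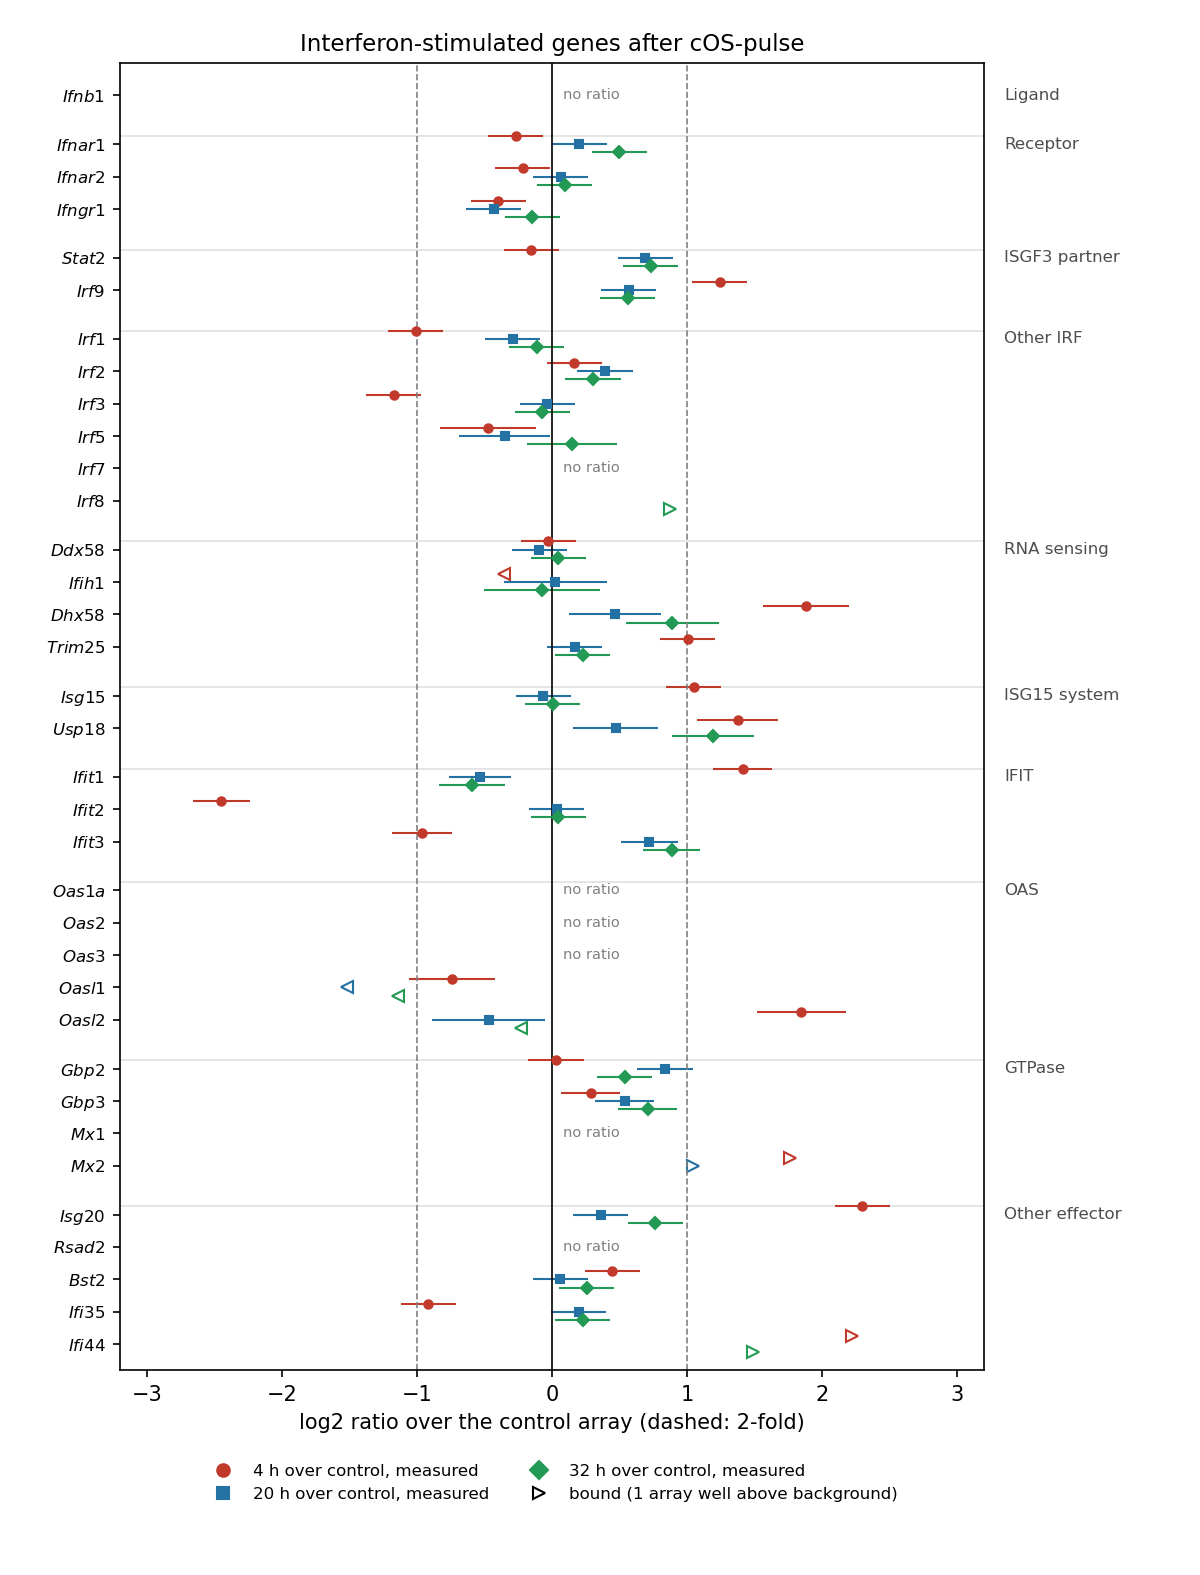
Log2 ratios over the control of the 35 members, ordered by role, for 4 h (circles), 20 h (squares) and 32 h (diamonds), 1 array each, with bars for the scanner's spot error, open triangles for bounds and dashed lines at 2-fold. At 4 h 10 members lie past 2-fold on the higher side and 3 on the lower side, and the 4 h signs of *Irf2*, *Gbp2* and *Gbp3* turn under 4, 5 and 3 of 6 other scalings.

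Among the ligand and receptors, no member was past 2-fold in any of the comparisons. *Ifnb1* (chr4:88168023-88168082, the probe's position in mm9), which encodes interferon beta, was detected on no array and has no ratio. Such positions come from the array's own annotation, and no exon annotation of mm9 was used. *Ifnar1* (chr16:91510673-91510732), a chain of the type I receptor, had log2 levels of 1.01 in the control, 0.74 at 4 h, 1.21 at 20 h and 1.5 at 32 h. This probe was lowest at 4 h and highest at 32 h, with log2 ratios of -0.27 ± 0.20, 0.20 ± 0.20 and 0.50 ± 0.20. The gene's other probes gave -0.67 and -0.55 at 4 h, 0.19 and 0.45 at 20 h, and 0.15 and 0.30 at 32 h. They too were lowest at 4 h, but they were highest at 20 h, so the probes of *Ifnar1* disagree on the highest array. *Ifnar2*, the other chain, had levels of 2.21, 2.0, 2.28 and 2.31 in the same order. *Ifngr1*, a chain of the interferon gamma receptor, had levels of 2.65, 2.26, 2.22 and 2.51. For *Ifnar2* the 4 h array was the lowest, with a log2 ratio of -0.22, and for *Ifngr1* 4 h and 20 h were the lowest, with -0.40 and -0.43.

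*Stat2* (chr10:127729834-127729893), the signal carrier of ISGF3, and *Irf9* (chr14:56228806-56228865), its DNA-binding partner, differed in time course. The log2 level of *Stat2* was 1.09 in the control, 0.94 at 4 h, 1.78 at 20 h and 1.82 at 32 h, that of *Irf9* -0.70, 0.55, -0.13 and -0.13. *Stat2* was high on the 2 later arrays, at log2 ratios of 0.69 ± 0.20 and 0.73 ± 0.20, and *Irf9* was highest at 4 h, 2.36-fold over the control (1.24 ± 0.21), with 0.57 and 0.56 later.

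Of the 6 other interferon regulatory factors, 2 were at least 2-fold lower at 4 h and 2 had no ratio there. *Irf1* (chr11:53590746-53590805), an activator of interferon and interferon gamma target genes, had log2 levels of 3.41 in the control, 2.40 at 4 h, 3.12 at 20 h and 3.30 at 32 h. *Irf3* (chr7:52257700-52257759), which carries the signal of RNA and DNA sensors to the interferon beta gene, had 3.72, 2.55, 3.69 and 3.65. Both were low at 4 h alone, *Irf1* by 2.01-fold (-1.01 ± 0.20) and *Irf3* by 2.25-fold (-1.17 ± 0.20). At 20 h the ratio of *Irf1* was -0.29 (above 0 under 1 of 6 other scalings) and that of *Irf3* -0.04 (above 0 under 4 of 6). At 32 h they were -0.11 and -0.07, each above 0 under 2 of 6. The other probe of *Irf1* was detected at 4 h only, at -4.86, so it gives no ratio to set against the first.

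*Irf2*, a factor that competes with IRF1 for the same DNA, had log2 levels of -0.50, -0.33, -0.11 and -0.19, and its 4 h ratio of 0.16 turned negative under 4 of 6 other scalings. *Irf5*, a factor of Toll-like receptor signalling, had -3.77 in the control, -4.25 at 4 h, -4.13 at 20 h and -3.63 at 32 h, close to the detection limit, with ratios of -0.47 ± 0.36, -0.35 ± 0.33 and 0.15. *Irf7*, the factor that amplifies interferon alpha, was detected on no array. *Irf8*, a factor of myeloid cells, was detected at 32 h alone, at -3.89, at least 1.83-fold above the control and at least 2.33-fold above 20 h.

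The RNA sensors differed among themselves. *Dhx58* (chr11:100556271-100556330), which encodes LGP2, a modulator of the RNA sensors, had log2 levels of -4.06 in the control, -2.18 at 4 h, -3.59 at 20 h and -3.17 at 32 h. It was highest at 4 h, 3.69-fold over the control (1.88 ± 0.32), and stood above the control on the later arrays by 0.47 ± 0.34 and 0.89 ± 0.34. The 3 ratios of *Dhx58* were 1.11, 0.00 and 0.32 with a normexp background. *Ddx58*, which encodes the sensor RIG-I, had 0.84, 0.81, 0.75 and 0.89, with a 4 h ratio of -0.03, and its other probe gave 0.22 ± 0.26. The 20 h ratio of *Ddx58* was -0.10, above 0 under 3 of 6 other scalings. *Ifih1*, which encodes the sensor MDA5, lay near the detection limit at -4.58 in the control, was not detected at 4 h (at least 1.28-fold lower) and had -4.56 and -4.66 later. *Trim25* (chr11:88881521-88881580), an enzyme that ubiquitinates RIG-I, had 3.47, 4.48, 3.64 and 3.70. This probe was highest at 4 h, 2.01-fold over the control (1.0 ± 0.20), but a second probe of the gene (chr11:88874956-88881181) gave 0.09 ± 0.20 there, so the probes of *Trim25* disagree.

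In the ISG15 system, both members were higher at 4 h. *Isg15* (chr4:155573649-155573708), a ubiquitin-like protein that is attached to other proteins, had log2 levels of 0.28 in the control, 1.33 at 4 h, 0.22 at 20 h and 0.29 at 32 h. It was high at 4 h alone, 2.07-fold over the control (1.05 ± 0.20), and a second probe gave 2.42-fold (1.28 ± 0.34). At 20 h and 32 h its ratios were -0.06 and 0.00, with signs that turned under 4 and 1 of 6 other scalings. *Usp18* (chr6:121220874-121220933), which removes ISG15 and restrains the receptor, had -4.23, -2.85, -3.76 and -3.04. It was high at 4 h and 32 h, 2.60-fold (1.38 ± 0.30) and 2.29-fold (1.19 ± 0.31) over the control, and lower between them at 20 h, with 0.47 ± 0.31. With a normexp background *Usp18* was short of 2-fold at both times, at 0.80 and 0.60.

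The IFIT genes, whose proteins bind viral RNA and limit its translation, moved apart at 4 h. *Ifit1* (chr19:34723796-34723855) had log2 levels of -2.40 in the control, -0.99 at 4 h, -2.93 at 20 h and -2.99 at 32 h. *Ifit2* (chr19:34650244-34650303) had 0.06, -2.39, 0.09 and 0.10. *Ifit3* (chr19:34663105-34663164) had -2.06, -3.02, -1.34 and -1.17. *Ifit1* was high at 4 h, 2.66-fold over the control (1.41 ± 0.22), and lower than the control later (-0.53 ± 0.23 and -0.59 ± 0.24). *Ifit2* was low at 4 h alone, by 5.46-fold (-2.45 ± 0.21), and stood at the control's level at 20 h and 32 h (0.04 and 0.05). *Ifit3* was low at 4 h, by 1.95-fold (-0.96 ± 0.22), just short of 2-fold, and high at 20 h and 32 h (0.72 ± 0.21 and 0.89 ± 0.21). The 4 h directions of these 3 genes were the same under each of the 6 other scalings, and *Ifit3* was at least 2-fold lower under each, while with a normexp background its ratio was -0.60. The *Ifit3* probe may also bind RNA of its close relative *Ifit3b*, which was not tested.

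**Figure D2:**
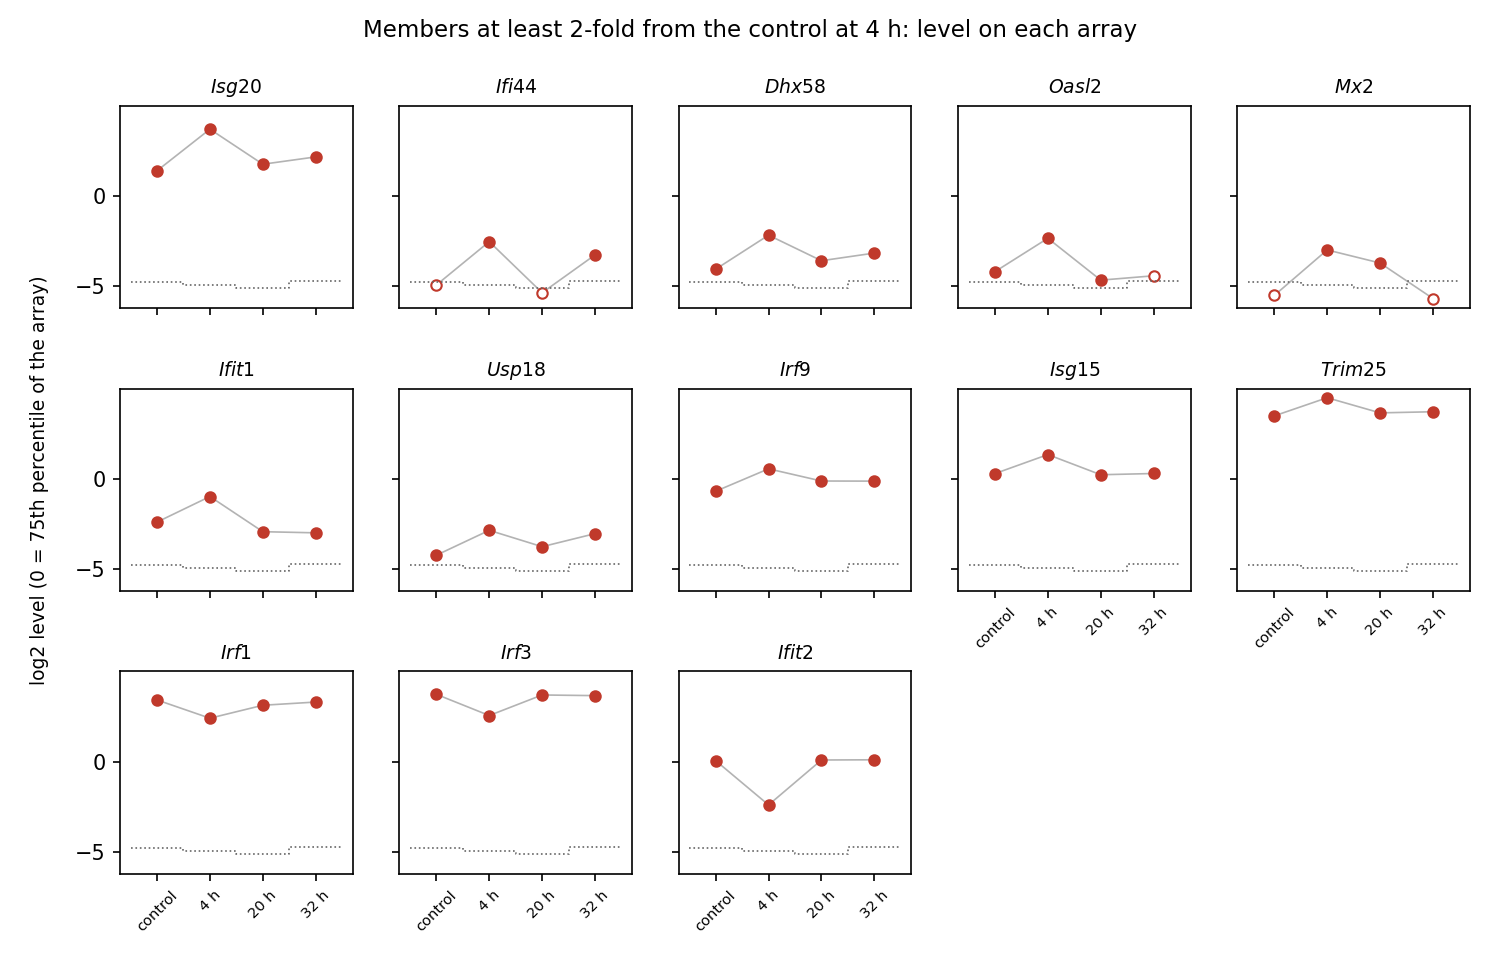
Log2 level on each of the 4 arrays, relative to the 75th percentile of the array, for each member at least 2-fold from the control at 4 h, with open points where the probe was not well above background and a dotted line at the lowest level that was. The 4 h array is the highest in the 10 panels from *Isg20* to *Trim25* and the lowest in those of *Irf1*, *Irf3* and *Ifit2*, and these 4 h directions against the control were the same under each of the 6 other scalings. For *Usp18* the highest array depends on the scaling. Under the 6 others its log2 ratio over the control was 0.97 to 1.25 at 4 h and 1.18 to 1.37 at 32 h.

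Of the OAS family, whose enzymes make the messenger that activates RNase L, *Oas1a*, *Oas2* and *Oas3* were detected on no array. *Oasl2* (chr5:115362168-115362227), an OAS-like protein, had log2 levels of -4.20 in the control, -2.35 at 4 h and -4.67 at 20 h, and was not detected at 32 h. It was highest at 4 h, 3.60-fold over the control (1.85 ± 0.33), and at 20 h its ratio was -0.47 ± 0.42. Its 4 h ratio with a normexp background was 1.08. *Oasl1*, a related protein that restrains translation of IRF7, had -3.59 and -4.33 and was not detected later. It was lower at 4 h (-0.74 ± 0.32), at least 2.87-fold lower at 20 h and at least 2.21-fold lower at 32 h. Under other scalings *Oasl1* was past 2-fold lower in 5 of 6 at 4 h and in 4 of 6 at 32 h, and with a normexp background its ratios were -0.13, -0.94 and -0.58, all short of 2-fold. Members of the OAS family are alike in sequence, and binding of a probe to more than 1 of them was not tested.

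The GTPases that act against viruses and other intracellular pathogens were *Gbp2*, *Gbp3*, *Mx1* and *Mx2*. *Gbp2* had log2 levels of -0.35 in the control, -0.32 at 4 h, 0.48 at 20 h and 0.19 at 32 h, *Gbp3* -2.44, -2.16, -1.90 and -1.73. Both were higher on the 2 later arrays, by 0.84 ± 0.20 and 0.54 ± 0.20 for *Gbp2* and by 0.54 ± 0.22 and 0.71 ± 0.22 for *Gbp3*. At 4 h the ratios of 0.03 and 0.29 turned negative under 5 and 3 of 6 other scalings. *Mx1* was detected on no array. *Mx2* (chr16:97782327-97782386) was detected at 4 h and 20 h, at -3.00 and -3.72, and not in the control or at 32 h, so it was at least 3.40-fold over the control at 4 h and at least 2.06-fold at 20 h. Its bounds with a normexp background were 1.14 and, short of 2-fold, 0.43. Paralogs of the Gbp and Mx families are close in sequence, and cross-hybridisation was not tested.

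Among the other effectors, *Isg20* (chr7:86065136-86065195), an exonuclease that degrades RNA, had log2 levels of 1.38 in the control, 3.68 at 4 h, 1.74 at 20 h and 2.15 at 32 h. It was highest at 4 h, 4.92-fold over the control (2.30 ± 0.20), and its second probe gave 4.75-fold. *Ifi44* (chr3:151394035-151394094) was detected at 4 h at -2.54 and at 32 h at -3.27, and not in the control or at 20 h, which puts it at least 4.67-fold over the control at 4 h and at least 2.81-fold at 32 h. The bounds of *Ifi44* with a normexp background were 1.21 and, short of 2-fold, 0.64. *Bst2*, a membrane protein that tethers virus particles to the cell, had 0.52, 0.97, 0.58 and 0.78, with a 4 h ratio of 0.45. *Ifi35*, a protein that takes part in the interferon response, was low at 4 h at -0.77 beside 0.14 in the control, with 0.34 and 0.37 later, a 4 h ratio of -0.92 ± 0.21 or 1.89-fold lower, and at least 2-fold lower under 5 of 6 other scalings. *Rsad2*, which encodes the antiviral enzyme viperin, was detected on no array. Members nearest the threshold at 4 h were thus *Trim25* (1.0), *Irf1* (-1.01) and *Isg15* (1.05) past it and *Ifit3* (-0.96) and *Ifi35* (-0.92) short of it.

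The later time points against the control ask how the members stood once more time had passed. Few members were past 2-fold: at 20 h 1 of 35 was higher (*Mx2*), beside 0.822% of all gene names, and 1 was lower (*Oasl1*), beside 2.0%. At 32 h 2 were higher (*Usp18* and *Ifi44*), beside 1.25% of all gene names, and 1 was lower (*Oasl1*), beside 1.55%. The median log2 ratio over the members measured on both arrays was 0.12 at 20 h and 0.23 at 32 h, beside -0.00 over all gene names at each time. At 20 h 16 of 24 measured members, and at 32 h 18 of 23, had a ratio above 0, beside 7873 of 15781 and 7706 of 15451 gene names. The median of all gene names moved by 0.10 with median scaling, by 0.20 with spike-in scaling and by 0.33 with none at 20 h, and by 0.16 with spike-in scaling and 0.18 with none at 32 h. Without the 1 spike-in probe furthest from the others, a setting chosen after seeing the data, spike-in scaling moved it by 0.075 and 0.004. With spike-in scaling 2 members were higher at 20 h, beside 1.32% of all gene names, and 5 higher at 32 h, beside 1.79%. With no scaling 4 were higher at 20 h, beside 1.95%, and 5 at 32 h, beside 1.86%. Under both of these scalings 0 were lower at 32 h, beside 1.13% and 1.10% of all gene names. Without the 1 outlying spike-in probe, spike-in scaling gave 1 member higher and 1 lower at 20 h, beside 0.974% and 1.75%. At 32 h it gave 2 higher and 1 lower, beside 1.27% and 1.54%, so the changed spike-in counts rest on that probe. With a normexp background, 0 members were past 2-fold in each direction at 20 h and at 32 h. Where detection on both arrays was required, 0 members were past 2-fold at 20 h in each direction, beside 0.729% of all gene names higher and 2.18% lower. At 32 h 1 was higher, beside 1.08%, and 0 were lower, beside 1.62%.

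Between 20 h and 32 h, 1 member was at least 2-fold higher at 20 h (*Mx2*, at least 2.02-fold), beside 0.527% of all gene names, and 2 were at least 2-fold lower, beside 1.17%. The lower ones were *Irf8* and *Ifi44*, the latter by at least 3.57-fold, and each of these 3 calls rests on a bound. With a normexp background *Mx2* (0.38) and *Irf8* (-0.88) fell short of 2-fold and *Ifi44* (-1.03) did not. The median log2 ratio of 20 h over 32 h was -0.07 for the members (above 0 under 3 of 6 other scalings) and 0.01 for all gene names, and the largest measured difference was that of *Usp18* at -0.72 ± 0.25. With no scaling, the median of all gene names moved by 0.15 here. Of the 4 endothelial markers 1 was at least 2-fold higher at 20 h than at 32 h and 0 were lower. It was *Cdh5*, at least 2.24-fold higher and past 2-fold under 6 of 6 other scalings. The part of other cells in this comparison was not tested.

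Promoters of the members were searched for DNA elements of the pathway, because members of 1 family differed at 4 h. Sequence was from RefSeq on GRCm38.p6, with 250 bases before to 50 after each start, and 30 of 35 members had an entry. In the promoter set used, *Dhx58*, *Usp18*, *Oas2*, *Mx1* and *Mx2* had none. RefSeq does list the probe accessions of *Dhx58*, *Usp18* and *Oas2* under those symbols, so what is missing for them is the promoter entry. The letters of the ISRE core, GAAANNGAA on either strand, were in 15 of 30 members, beside 9.76% of 27025 genes. Those of GAS, TTCNNNGAA, which reads the same on both strands, were in 10 of 30, beside 9.55%. Those of 1 form of the kappa-B element, GGGANTTTC on either strand, were in 0 of 30, beside 1.29%. Other forms of the kappa-B element were not searched, so this count does not show that the members lack such elements. ISRE and GAS matches can overlap, as in *Bst2*.

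Of the members at least 2-fold higher at 4 h, 4 of 7 with a promoter entry held the ISRE core letters (*Ifi44*, *Ifit1*, *Isg15* and *Trim25*), and of those at least 2-fold lower 0 of 3 did. Within 2-fold, 8 of 14 held them, and of those with no ratio 3 of 6. GAS letters were in 1 of 7 higher members (*Isg20*), 2 of 3 lower ones (*Ifit2* and *Irf1*), 5 of 14 within 2-fold and 2 of 6 with no ratio. A match describes letters in the window and was not tied to binding of any factor. A gene without a match, such as *Ifit2* for the ISRE core, may hold the letters outside its windows. Whether the annotated starts are those used in these cells was not tested.

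The sequences of *Isg15* and the IFIT genes are shown because these genes belong to 1 pathway and yet had different 4 h ratios. Each is the 250 bases before the start, written 5′ to 3′ on the gene's own strand: *Isg15* at chr4:156200819-156201068 on the minus strand, *Ifit1* at chr19:34640639-34640888, *Ifit3* at chr19:34583279-34583528 and *Ifit2*, which has 2 starts, at chr19:34550444-34550693 and chr19:34550838-34551087, all on the plus strand. Capitals mark letters of the ISRE core, with overlapping matches run together, or of GAS in the first window of *Ifit2*. *Isg15* matches began 78, 72 and 66 bases before the start, *Ifit1* matches 109, 103 and 84, and *Ifit3* matches 155, 121 and 102. The GAS match of *Ifit2* began 241 bases before the start, and its second window held none of the letters searched. Whether RNA of these cells began at either of these 2 *Ifit2* starts was not tested. The windows therefore do not show that *Ifit2* lacks the ISRE core letters elsewhere.
Isg15: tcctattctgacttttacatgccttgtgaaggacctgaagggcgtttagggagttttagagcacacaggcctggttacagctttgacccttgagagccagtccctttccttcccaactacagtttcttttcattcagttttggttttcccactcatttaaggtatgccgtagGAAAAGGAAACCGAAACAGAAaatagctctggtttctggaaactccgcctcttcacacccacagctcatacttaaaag
Ifit1: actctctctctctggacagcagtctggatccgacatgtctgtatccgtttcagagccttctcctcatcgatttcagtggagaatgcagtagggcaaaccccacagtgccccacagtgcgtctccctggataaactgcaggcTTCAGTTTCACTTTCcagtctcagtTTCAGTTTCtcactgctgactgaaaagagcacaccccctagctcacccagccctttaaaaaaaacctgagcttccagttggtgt
Ifit3: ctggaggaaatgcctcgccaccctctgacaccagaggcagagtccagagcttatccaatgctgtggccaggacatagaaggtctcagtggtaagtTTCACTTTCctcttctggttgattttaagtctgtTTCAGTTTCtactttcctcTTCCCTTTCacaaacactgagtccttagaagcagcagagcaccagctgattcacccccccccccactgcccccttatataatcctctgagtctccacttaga
Ifit2 first window: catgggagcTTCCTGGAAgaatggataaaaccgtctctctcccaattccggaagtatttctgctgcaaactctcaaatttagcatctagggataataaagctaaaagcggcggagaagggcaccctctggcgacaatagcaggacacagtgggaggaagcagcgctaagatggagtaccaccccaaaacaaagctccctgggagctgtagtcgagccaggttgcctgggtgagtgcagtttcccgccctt
Ifit2 second window: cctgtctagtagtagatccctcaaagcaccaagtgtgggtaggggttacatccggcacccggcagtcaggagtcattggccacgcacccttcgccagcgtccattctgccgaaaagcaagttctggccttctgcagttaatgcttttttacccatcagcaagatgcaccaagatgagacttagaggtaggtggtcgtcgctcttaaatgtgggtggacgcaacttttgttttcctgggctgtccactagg

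**Figure D3:**
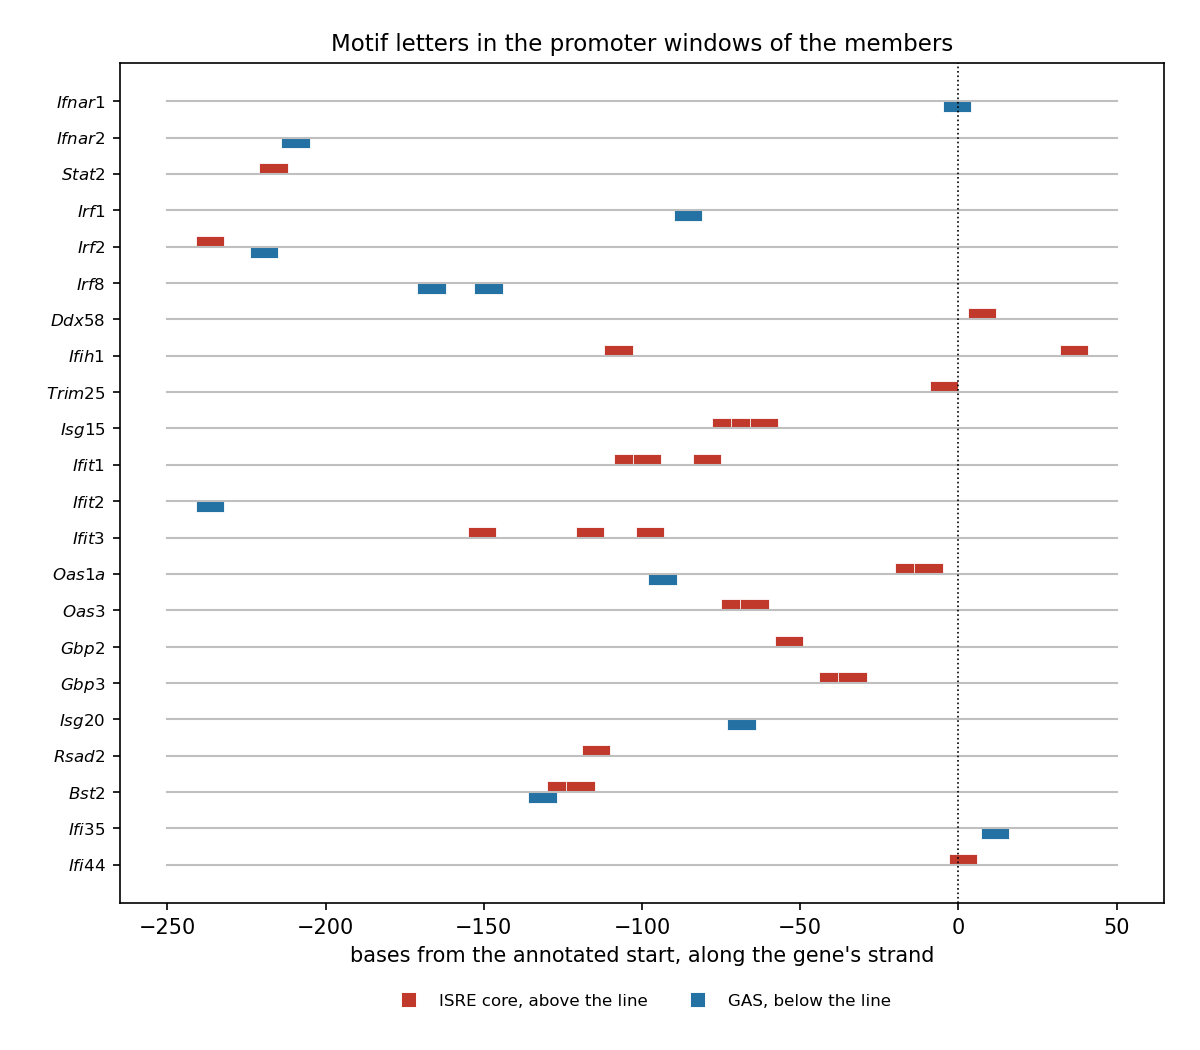
Matches of the ISRE core and GAS letters along the window from 250 bases before to 50 bases after the start (GRCm38.p6, RefSeq), for members with at least 1 match. The ISRE core letters were in 15 of 30 members and the GAS letters in 10 of 30.

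Other genes of the pathway were read from 4 further lists, each as counts of genes at least 2-fold higher or lower. Of 10 genes of receptor signalling measured on both arrays, 0 were past 2-fold at 4 h in each direction, beside 8.25% of all gene names measured on both arrays that were higher and 8.16% that were lower, and the median log2 ratio was 0.29, beside 0.17. The largest differences at 4 h were *Jak2* (-0.94), a receptor kinase, *Ptpn2* (0.70), a phosphatase, *Tyk2* (-0.66), the type I receptor's kinase, and *Socs1* (-0.62), a feedback inhibitor. Under other scalings *Jak2* was at least 2-fold lower in 6 of 6, *Tyk2* in 3 and *Socs1* in 2, so the count of 0 holds for the 75th-percentile scaling. *Jak2* had log2 levels of 2.52, 1.58, 3.02 and 3.62 and was low at 4 h and high at 32 h (1.10). It was the 1 gene of the 10 measured past 2-fold at 32 h. Of all gene names measured on both arrays, 1.08% were higher at 32 h and 1.62% lower. At 20 h 0 of the 10 measured were past 2-fold, beside 0.729% of all gene names so measured that were higher and 2.18% lower. *Socs3*, a feedback inhibitor chosen after its value was seen, was at 0.92 at 32 h and past 2-fold under 3 of 6 other scalings.

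Of 9 sensing genes on the array, of 10 listed, 0 were past 2-fold at 4 h, beside 6.78% of all gene names higher and 5.07% lower, with *Ikbke* at -0.90 ± 0.25, *Tmem173*, which encodes STING, at -0.61, *Traf3* at 0.49 and *Zbp1* at -0.43. That count too holds for the 75th-percentile scaling, since *Ikbke* was at least 2-fold lower under 6 of 6 other scalings and *Tmem173* under 2. *Zbp1*, a sensor of nucleic acids in the Z form, was the 1 of 9 past 2-fold at 20 h (1.04, beside 0.822% of all gene names) and at 32 h (1.26, beside 1.25%).

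On the array were 55 of 57 further interferon-stimulated genes listed. Of these 55, 3 were at least 2-fold higher at 4 h (5.45%, beside 6.78% of all gene names) and 3 lower (5.45%, beside 5.07%). The median log2 ratio was 0.05 over the 42 measured on both arrays. The lower ones were *Uba7* (-1.95 ± 0.21), the enzyme that activates ISG15, *Pml* (-1.41) and *Psmb10* (-1.14), a subunit of the immunoproteasome. Higher were *Slfn2* (1.29 ± 0.28), *Oas1g* (at least 2.13-fold) and *Adar* (1.0), which was chosen after its value was seen. The lower ones stayed past 2-fold under 6 of 6 other scalings, *Slfn2* under 3, *Adar* under 1 and *Oas1g* under 0. Other scalings also put *Parp14* (-0.79) at least 2-fold lower in 4 of 6, *Nmi* (-0.70) in 3 and *Tdrd7* (-0.61) in 2. At 20 h 0 of 55 were higher, beside 0.822% of all gene names, and 2 lower (3.64%, beside 2.0%), *Cxcl10* (-2.28), a chemokine that draws lymphocytes, and *Ifitm1* (-1.02). At 32 h 1 was higher (1.82%, beside 1.25%), *Slfn2* (1.05), and 1 lower (1.82%, beside 1.55%), *Cxcl10* (-2.41). *Nlrc5* was at 0.93 at 20 h and 0.90 at 32 h, past 2-fold under 4 and 2 of 6 other scalings. *Parp14*, *Nmi*, *Tdrd7*, *Nlrc5*, *Cxcl10* and *Ifitm1* were chosen after their values were seen, and *Ifitm1* was past 2-fold at 20 h under 2 of 6 other scalings.

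On the array were 14 of 17 other interferon genes listed. Of these 14, 4 were at least 2-fold higher at 4 h (28.6%, beside 6.78% of all gene names). At 4 h 0 were lower, beside 5.07%. The median log2 ratio was 0.995 over the 7 measured on both arrays, beside 0.17 for all gene names so measured. The higher ones were *Ifnab* (1.29 ± 0.26), *Ifna1* (1.29 ± 0.31), *Ifna5* (1.04 ± 0.29) and *Ifna2* (at least 2.32-fold), and *Ifna14* lay just under the threshold at 0.995 ± 0.27. In the control these probes were dim, at log2 levels of -3.70 for *Ifnab*, -4.06 for *Ifna1* and -3.80 for *Ifna5*. *Ifna2* was not detected there, and the lowest level detected in the control was -4.76. A normexp background was not tried for these lists. Under other scalings *Ifnab* and *Ifna1* were past 2-fold in 3 of 6, *Ifna2* in 1 and *Ifna5* in 0. At 20 h and at 32 h 1 of 14 was lower (7.14%), beside 2.0% and 1.55% of all gene names. At these times 0 were higher, beside 0.822% and 1.25%. The lower one was *Ifna11*, chosen after its values were seen, at -1.35 at 20 h and -1.25 at 32 h. Interferon alpha genes are nearly identical in sequence, so which of them a probe measured is uncertain. The 4 higher calls may therefore not be separate genes, which limits the reading of their share beside that of all gene names. Between 20 h and 32 h, 0 genes of these 4 lists with a ratio were past 2-fold in each direction. Of all gene names, 0.527% were at least 2-fold higher in that comparison and 1.17% lower. Median log2 ratios over genes measured on both arrays were, at 20 h and 32 h, 0.12 and 0.08 for signalling. Those for sensing were 0.07 and 0.20, for the further interferon-stimulated genes 0.24 and 0.35, and for the other interferons -0.12 and 0.03. The directions given for named genes of these lists at 4 h were the same under each of the 6 other scalings.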

How the data were processed

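RNA levels were measured on 4 one-colour Agilent arrays, 1 per condition. The authors deposited scanner files of spot intensity made with Agilent Feature Extraction 10.7.3.1, and the processed signal, from which local background is subtracted, was used. The deposited value table holds the same intensity divided by 1 constant per array, with column medians of 0.0590, 0.0757, 0.0546 and 0.0587 for control, 4 h, 20 h and 32 h. Spots with a quality mark were dropped (133, 125, 160 and 161), which left out 2 of 39429 probes. Log2 signals were averaged per probe and scaled to the 75th percentile of the array. Log2 ratios were taken from the probe with the highest mean over the arrays. A bound divides by the larger of the probe's own signal and the lowest level well above background on the array that lacks it.

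The members and the lists were chosen with earlier results of these data known. Members were matched by symbol, and 33 of 35 probes have an accession that RefSeq lists under the same symbol. Every member was named, with the 4 genes of each further list that had the largest measured ratio at 4 h and up to 4 bounds past 2-fold. Alternatives were other scalings (spike-in scaling used the 8 spike-in probes well above background on all arrays), normexp background with an offset of 50, the deposited table, other rules of detection, thresholds of 1.5-fold and 3-fold, and the median over a gene's probes. The steps were tested on simulated data. Software was pandas 2.3.3, numpy 2.4.6 and matplotlib 3.10.9 under Python 3.11.15, and for normexp limma 3.58.1 under R 4.3.3.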

Additional observations from a re-analysis of the deposited data

Results flagged for a closer look

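*Ifit1* and *Ifit3* lay on opposite sides of the control at 4 h and later. The log2 ratio of *Ifit1* over the control at 4 h exceeded that at 20 h by 1.94 and that at 32 h by 2.01, since it was above 0 at 4 h and below 0 later. For *Ifit3* the 4 h ratio minus the 20 h ratio was -1.68 and minus the 32 h ratio -1.85, below 0 at 4 h and above 0 later. The signs were the same under each of the 6 other scalings. They are listed because each ratio was more than 2 spot errors from 0 with opposite signs, a limit chosen after the values were seen. With 1 array per time point and a control array that all these ratios share, the difference was not tested.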

How the results depend on the processing

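Of the counts and medians of members under the alternatives, 104 were within 1.5 times the reported count or within the spot error of the reported median, and 44 were not. Of the single members' ratios, 694 moved by less than the spot error and 153 by more, and 0 of those past 2-fold changed sign. With a normexp background single ratios of dim members at 4 h were nearer 0, such as *Dhx58* at 1.11, *Oasl2* at 1.08, *Ifi44* at 1.21 and *Oasl1* at -0.13. The 44 counts and medians that moved follow, and the cause was not tested except where a stricter threshold or detection rule lowers a count by construction. At 4 h, scaling to the median of all probes gave 6 members lower and a median log2 ratio of -0.36, the 75th percentile of probes detected on all arrays 5 lower, and quantile normalization 5 lower. Spike-in scaling gave 6 higher, 6 lower and a median of -0.40, also without the 1 probe furthest from the others (6, 6 and -0.40), a setting chosen after seeing the data, and no scaling 6 lower and -0.28. A 1.5-fold threshold gave 6 lower, and a 3-fold threshold 5 higher and 1 lower. At 20 h, spike-in scaling gave 2 higher, and no scaling 4 higher and a median of 0.45. Normexp background, detection on both arrays and the 3-fold threshold each gave 0 higher and 0 lower there, and the 1.5-fold threshold 4 higher. At 32 h, spike-in scaling and no scaling each gave 5 higher and 0 lower, normexp background and the 3-fold threshold 0 and 0, detection on both arrays 1 and 0, and the 1.5-fold threshold 8 and 2. Spike-in scaling without the 1 probe furthest from the others gave the reported counts at both later times. These were 1 higher and 1 lower at 20 h, and 2 and 1 at 32 h. For 20 h over 32 h, normexp background and the 3-fold threshold gave 0 higher and 1 lower, detection on both arrays 0 and 0, and no detection filter 2 higher. Members close to background, such as *Irf5*, *Ifih1* and *Oasl2*, have the widest spot errors, and 7 members gave no signal to compare.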
